A study of Mus musculus with 24 samples.

Results

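The comparison described here is auxin against control on day 4 of differentiation toward neural progenitors, in mouse cells in which auxin triggers destruction of degron-tagged CTCF protein. Its members are the libraries labelled day 4 auxin and day 4 control, 2 of each, 4 of 24 in the series. All cells, controls included, are F123 embryonic stem (ES) cells or their differentiated progeny with the degron on CTCF. Day 4 auxin cells were differentiated with auxin and day 4 control cells without it. Where auxin was given, 1 µl of a 500 mM stock was added per ml of medium, and the medium was renewed every 24 h. The labels do not say when auxin was started relative to differentiation. Auxin and control cells from days 2 and 6, and cells given 2 further days without auxin after a washout on day 4, are used for comparison. Whether the replicates are separate cultures is not labelled. P-values therefore measure the spread between these libraries, which may be technical. Auxin-treated cells without the degron were not analysed here, so effects of auxin itself and of CTCF loss cannot be told apart.

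CTCF is a zinc-finger protein that binds an asymmetric DNA motif and stops the loop-extruding cohesin ring, so that it anchors chromatin loops and marks domain borders. It also binds close to the start sites of many genes, and the series asks how such promoter-proximal binding affects genes that depend on distant enhancers. When ES cells become neural progenitors, pluripotency factors such as Pou5f1 and Nanog are shut down, Sox1 and Pax6 come on, and neural tube factors and then proneural factors follow. A degron on the protein removes CTCF without touching its gene.

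The 4 libraries held 55653906 and 66491850 counts with auxin and 61043565 and 67118355 counts without. Of 51697 genes in the table, 22587 had enough counts to be tested. Replicate libraries had log2 ratios with a standard deviation of 0.169 in the controls and 0.180 with auxin, against 0.306 in the day 2 auxin group, whose replicates stood furthest apart. On the first principal component, which held 62.4% of the variance over the 16 differentiation libraries, day 4 controls lay at 3.14 and 3.92 and day 4 auxin cells at −12.1 and −11.2, between the day 2 libraries (−93.6 to −88.4) and the day 6 libraries (29.5 to 42.7). Both washout groups lay apart from all other groups, at 55.4 to 61.5. Levels below are CPM, or counts scaled to a common library size, ± gives the standard error of a log2 fold change, and a gene passed at an adjusted p below 0.05.

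Day 4 control cells expressed the neural progenitor markers Sox2, Nes, Pax6 and Sox1 at 36.3, 9.3, 5.65 and 5.38 CPM per kb of exon. Hes5 and Fabp7, also progenitor markers, were at 1.12 and 0.44 CPM per kb. The endoderm markers Gata6, Gata4, Foxa2 and Sox17 were at 42.3, 40.8, 22.9 and 12.3 CPM per kb, and the basement membrane genes Col4a1 and Sparc, high in primitive endoderm, reached 702 and 521 CPM per kb. Pou5f1 was still at 63 CPM per kb. The control cells thus carried RNA of several lineages beside that of neural progenitors. In bulk RNA, fewer cells of a type and less RNA per cell cannot be told apart.

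Ctcf mRNA was measured at 230 and 232 CPM in the controls and at 288 and 279 CPM with auxin. The groups did not overlap and auxin cells were the higher (log2 fold change 0.29 ± 0.08, adjusted p = 0.0179), but Ctcf failed the threshold in each of the 4 fits with a library omitted (adjusted p = 0.057 to 0.114). The degron acts on the protein, so the transcript does not check its depletion. Among 19 genes of CTCF and the cohesin machinery, the cohesin subunit gene Stag1 rose most (198 and 197 CPM to 319 and 304 CPM, log2 fold change 0.65 ± 0.07, adjusted p = 3.19e-06). The acetyltransferase genes Esco2 (0.49 ± 0.07) and Esco1 (0.42 ± 0.08) rose as well, and Smc1a was lower (−0.19 ± 0.05, adjusted p = 0.0126). Smc1a did not pass without replicate 2 of the control or of the auxin group (adjusted p up to 0.104), nor with no filter on low counts.

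Auxin changed 5318 of 22587 tested genes on day 4, or 23.5%. Higher and lower genes were equally many, 2659 each and 11.8% of the tested genes each way. The median change was 1.46-fold among higher genes and 1.47-fold among lower genes. Large changes were more often decreases: 588 genes were at least 2-fold higher and 704 at least 2-fold lower, and 35 were at least 8-fold higher against 114 at least 8-fold lower. For 14395 tested genes, or 63.7%, both auxin values lay on the same side of both control values, so this is no mark of a changed gene by itself. The number of calls rests on how the spread is estimated. It was 803 when the ES libraries entered the fit, which tested 23831 genes, and 7716 when the day 2 auxin group was left out, and 3354 to 3782 when 1 of the 4 libraries was left out.

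**Figure D1:**
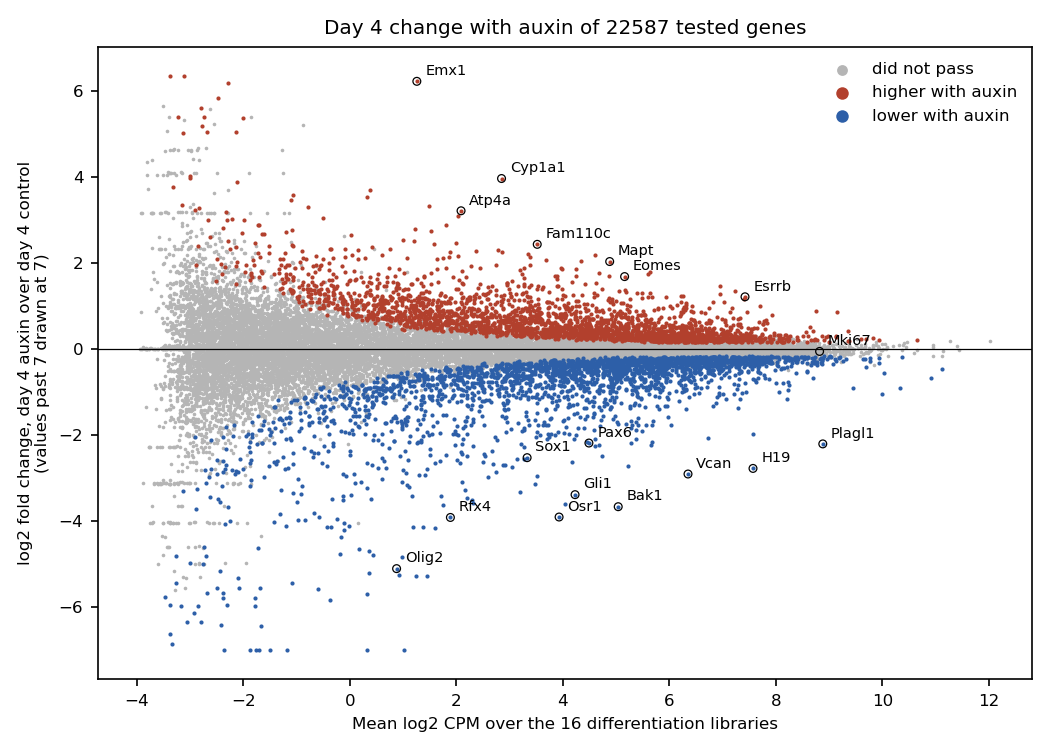
Each point is 1 of 22587 tested genes, by its mean log2 CPM over 16 differentiation libraries and its log2 fold change with auxin on day 4, with labelled genes circled. Higher and lower calls are equally many at 2659 each, and the largest changes among well-expressed genes are decreases such as Bak1, H19 and Plagl1.

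Genes of the neural progenitor state were mostly lower with auxin. Of 30 tested, 19 fell and 3 rose, with a median log2 fold change of −1.13 against 0 over all tested genes. Sox1, the earliest marker of neural plate cells, was at 25.9 and 26.2 CPM in the controls and at 4.51 and 4.53 CPM with auxin, 5.75-fold lower (−2.52 ± 0.14, adjusted p = 1.54e-09). Pax6, a paired-box regulator of neural tube and eye, went from 65.4 and 66.8 CPM to 15.2 and 14 CPM (−2.18 ± 0.08, adjusted p = 3.55e-11). In both genes the replicates lay close together and far from the other group.

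Rfx4, a winged-helix factor of the developing neural tube, fell from 10.2 and 9.42 CPM to 0.589 and 0.702 CPM, 15-fold (adjusted p = 2.84e-09). The POU-domain factor Pou3f2 fell from 8.79 and 9.09 CPM to 0.81 and 0.702 CPM, 11.9-fold (adjusted p = 3.55e-11). Hes5, a Notch-driven repressor of neurogenesis, was at 1.81 and 1.25 CPM in the controls and at 0.0184 and 0.0458 CPM with auxin (adjusted p = 7.63e-05), and its log2 fold change went from −5.44 to −6.22 without replicate 2 of the auxin group. With auxin all 3 factors were below 1 CPM in both libraries. Not all progenitor genes went down: Vim (0.51), Lhx2 (0.47) and Nes (0.30) rose on the log2 scale. Nes, an intermediate filament gene, was at 58.2 and 61.1 CPM and then at 69.2 and 77.4 CPM (adjusted p = 0.00716), and did not pass without replicate 1 of the control or replicate 2 of the auxin group. Sox2 changed little, from 72.5 and 77 CPM to 65 and 59.9 CPM (−0.26 ± 0.08, adjusted p = 0.0256), and did not pass in 3 of 4 fits with 1 library left out.

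Markers of other cell types moved at the same time. Of 33 tested pluripotency genes 20 were higher and 2 lower, and their summed level was 3110 and 3080 CPM in the controls and 3850 and 3770 CPM with auxin. The 33 tested endoderm genes had 7 higher and 7 lower and summed to 24200 and 24400 CPM without auxin and to 25700 and 24400 CPM with it. The part of either cell type in the lower neural genes was not tested.

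Regulators that pattern the neural tube were also more often lower than higher. Among 14 ventral factors 8 fell and 1 rose, with a median of −0.85. Olig2, which specifies motor neuron and oligodendrocyte progenitors, was at 6.52 and 7.28 CPM in the controls and at 0.147 and 0.244 CPM with auxin, 34.3-fold lower (adjusted p = 2.89e-10). Nkx6-1, a homeodomain factor of the same ventral region, fell from 13.9 and 14.1 CPM to 1.51 and 1.07 CPM (adjusted p = 1.77e-10). Dbx1 fell 51.8-fold, Prdm12 13.9-fold and Olig1 7.54-fold. The log2 fold change of Prdm12 was −5.88 without replicate 1 and −2.89 without replicate 2 of the auxin group, and that of Dbx1 −6.34 without replicate 2. The ventral ligand gene Shh went the other way, from 3.63 and 4.57 CPM to 9.26 and 8.31 CPM (log2 fold change 1.09). Of 16 dorsal factors 5 fell (Wnt1, Wnt3a, Pax3, Gbx2 and Msx1) and 3 rose, among them Atoh1 and Lmx1a, with a median of −0.54. Wnt1, a roof plate and midbrain signal, was at 1.13 and 1.45 CPM and then at 0.111 and 0 CPM (adjusted p = 0.000435), and its log2 fold change was −3.52 without the library at 0.

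Proneural and neurogenic factors, which commit progenitors to become neurons, showed the lowest median of the neural lists. Of 23 tested, 15 fell and 2 rose, with a median of −1.35. The basic helix-loop-helix gene Neurod4 was at 3.8 and 3.66 CPM in the controls and had 0 counts in both auxin libraries, so it was at least 149-fold lower (adjusted p = 9.22e-08, bound against 3 counts over the group, counting error only). Neurog2, which drives neuronal commitment, fell from 7.05 and 7.04 CPM to 0.111 and 0.244 CPM, 38.1-fold (adjusted p = 4.94e-08). Neurog1 (18.4-fold), Nhlh1 (24.9-fold) and Nhlh2 (17.5-fold) fell with it. The log2 fold change of Neurog2 was −5.97 without replicate 2 of the auxin group, and that of Nhlh1, which had 0 counts in replicate 1, was −3.78 without that library. Mir124-2hg hosts a neuronal microRNA. The level of Mir124-2hg went from 5.61 and 5.49 CPM to 0.0921 and 0.183 CPM (adjusted p = 6.45e-08), and the log2 fold change was −5.88 without replicate 2 of the auxin group. The members that rose were Eomes, a T-box factor of neurogenesis but also of mesendoderm and trophoblast, and the corepressor gene Cbfa2t3. Eomes was at 15.7 and 15.8 CPM and then at 51 and 51.1 CPM (1.69 ± 0.07, adjusted p = 1.18e-10).

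Motor neuron and interneuron factors followed, with 11 of 23 lower, 2 higher (Pou4f1 and Gata2) and a median of −0.93. Lhx3, Onecut1 and Onecut2 fell 6-fold, 3.29-fold and 3.37-fold. Among 32 young neuron genes 17 fell, 5 rose and the median was −0.49. Dcx, a microtubule protein of migrating neurons, fell from 3.01 and 2.97 CPM to 0.258 and 0.336 CPM (−3.31 ± 0.20, adjusted p = 5.25e-09). Tubb3, a neuronal tubulin, fell from 11.7 and 11 CPM to 3.37 and 2.87 CPM (−1.87 ± 0.11, adjusted p = 2.38e-09). The 5 that rose were Mapt, Nefl, Syt1, L1cam and Nrcam. Mapt, which encodes the microtubule protein tau, was at 8.87 and 9.48 CPM in the controls and at 37.6 and 38.2 CPM with auxin (2.04 ± 0.10, adjusted p = 3.01e-10), and the neurofilament gene Nefl was at 3.38 and 3.92 CPM and then at 12.9 and 13.2 CPM. Within this list, therefore, axonal cytoskeleton genes moved in both directions.

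**Figure D2:**
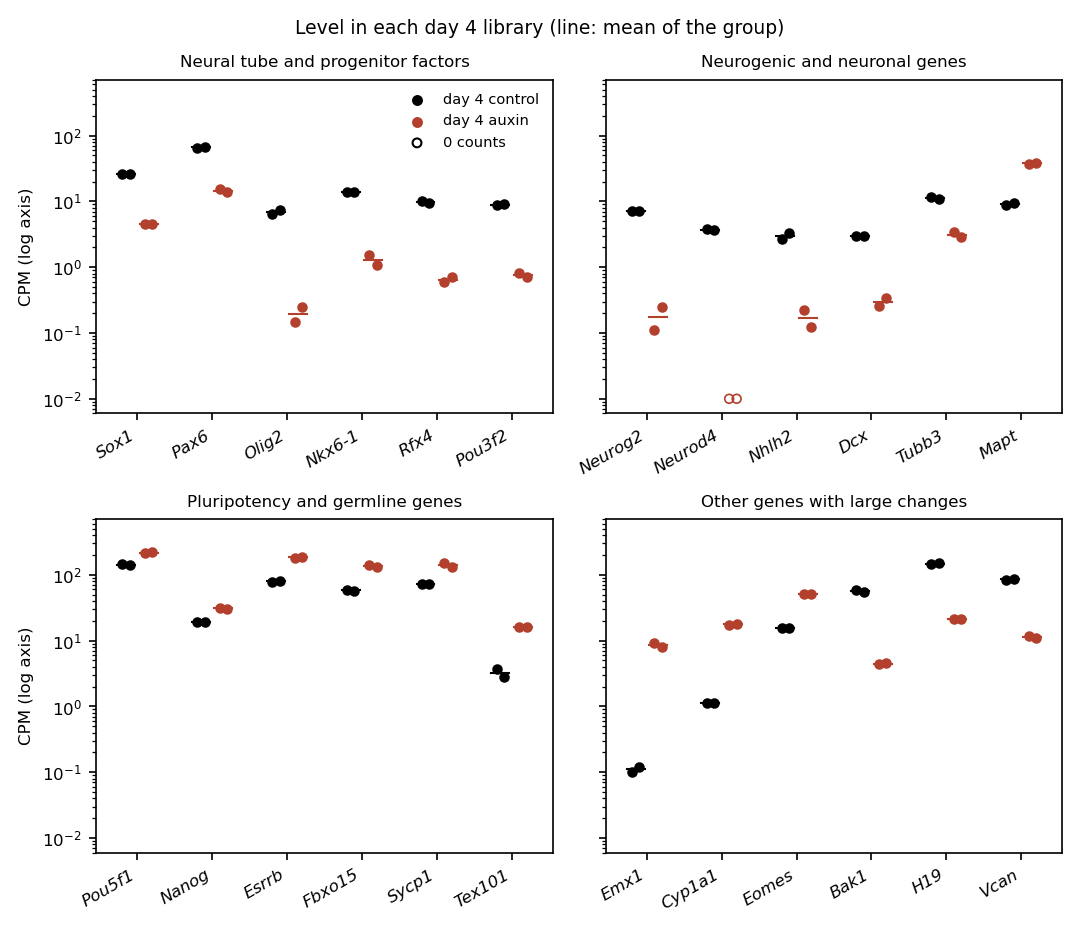
Points are CPM (log axis) in each of the 4 day 4 libraries, black without auxin and red with it, lines are group means, and open points mark 0 counts. Replicates lie close together beside the distance between groups, with Neurod4 at 0 in both auxin libraries. All genes drawn passed on day 4, so groups that do not overlap, as in 63.7% of all tested genes, are no further result.

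Signalling pathways of the neural tube shifted with these factors, mostly downward. Of 22 tested Hedgehog genes 12 fell and 3 rose (median −0.48). Gli1, a transcription factor whose own expression reports pathway activity, was at 24.9 and 26 CPM in the controls and at 2.23 and 2.62 CPM with auxin, 10.4-fold lower (−3.38 ± 0.11, adjusted p = 8.88e-12). The coreceptor gene Boc fell from 36.3 and 36.8 CPM to 7.79 and 8.56 CPM (adjusted p = 2.85e-11), and the target and decoy receptor gene Hhip fell 3-fold. The 3 that rose were Foxf2 (1.96), Shh (1.09) and Ihh (0.69), so that ligand transcripts were higher while the target Gli1 was lower.

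In the Notch list 8 of 22 fell and 2 rose (median −0.26). The ligand gene Dll1 fell from 9.88 and 8.95 CPM to 1.92 and 2.17 CPM (adjusted p = 1.08e-08), and Dll4 and Dll3 fell 3.3-fold and 2.6-fold. The target Hes5 was nearly lost, as given above, whereas Hey2, also a Notch target, was at 0.895 and 0.75 CPM and then at 6.41 and 5.69 CPM (2.88 ± 0.25, adjusted p = 2.34e-07). The ligand gene Jag2 rose too (0.41). Wnt genes had 14 of 30 lower and 6 higher (median −0.51), with the feedback inhibitor Nkd2 down 7.62-fold, the ligand enhancer Rspo3 4.22-fold and the antagonist Sfrp2 3.03-fold.

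FGF genes had 10 of 23 lower and 3 higher (Spry2, Etv4 and Fgfr4), with a median of −0.24. The ligand gene Fgf15 fell from 2.89 and 2.71 CPM to 0.184 and 0.153 CPM (adjusted p = 2.71e-07). BMP and TGF-beta genes had 10 of 29 lower and 5 higher (Lefty2, Gdf6, Lefty1, Bmp6 and Smad7), with a median of −0.14. The BMP target Id3 fell from 160 and 151 CPM to 84 and 93.1 CPM, and the ligand gene Bmp5 fell 12.4-fold from a low level, with a log2 fold change of −4.31 without replicate 1 of the auxin group.

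Retinoic acid genes, which respond to the signal used to pattern posterior neural tissue, split evenly: 12 of 29 fell and 10 rose (median −0.21). The enzymes that make retinoic acid were higher. Aldh1a3 rose from 0.777 and 0.673 CPM to 4.51 and 4 CPM (adjusted p = 2.71e-07) and Aldh1a2 from 10.5 and 11.9 CPM to 39 and 39.2 CPM (adjusted p = 1.09e-09). The nuclear receptor gene Nr2f1, also called COUP-TFI, fell from 59.9 and 61.8 CPM to 13 and 13.1 CPM (−2.22 ± 0.09, adjusted p = 3.55e-11). The caudal genes moved apart, with Cdx1 4.58-fold higher and Cdx2 3.02-fold lower.

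Hox genes, regulators of head-to-tail identity, also went both ways. Of 39 tested, 16 fell and 6 rose (median −0.23). Those that rose were Hoxa13, Hoxa11, Hoxa10, Hoxc10, Hoxc13 and Hoxb1, and Hoxa13 went from 1.27 and 1.45 CPM to 6.85 and 6.28 CPM (2.27 ± 0.16, adjusted p = 3.17e-08). The largest decreases were in Hoxd3 (6.53-fold), Hoxc5 (3.98-fold) and Hoxd4 (3.96-fold), and Hoxb13 was the only lower member of the groups numbered 9 and above. Hoxc5 and the Hoxd genes overlap other tested genes, and the strand setting of the counting is not given in the sources used here.

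Pluripotency genes were higher. Of 33 tested, 20 rose and 2, Fgf5 and Sox2, fell, with a median of 0.59. Neither decrease was stable to leaving out a library. The log2 fold change then ran from −0.92 to −0.34 for Fgf5 and from −0.32 to −0.2 for Sox2. Pou5f1 was at 144 and 140 CPM in the controls and at 217 and 220 CPM with auxin (0.63 ± 0.07, adjusted p = 5.25e-06). Nanog, at 31.8 and 30.1 CPM with auxin, was 1.62-fold higher than in the controls, which did not overlap with it (0.69 ± 0.06, adjusted p = 2.99e-07). Esrrb, an orphan nuclear receptor of the naive state, showed a larger change, from 78.9 and 80.1 CPM to 183 and 188 CPM (1.22 ± 0.07, adjusted p = 1.21e-09). Nr0b1 (2.47-fold), Tcl1 (2.47-fold), Fbxo15 (2.34-fold) and Dppa3 (2.27-fold) had changes of a like size. None of the libraries of one group reached the other in these genes, which also holds for 63.7% of all tested genes.

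Germline genes had the highest share of increases of all lists. Of 23 tested, 19 rose and 0 fell by edgeR, as by DESeq2, with 1 lower at an unadjusted p below 0.05, and the median was 0.61. Tex101, a surface protein of germ cells, rose from 3.73 and 2.8 CPM to 16.4 and 15.9 CPM (2.31 ± 0.18, adjusted p = 8.89e-08). The meiotic chromosome axis genes Sycp1 (72.9 and 73.2 CPM to 151 and 132 CPM) and Sycp3 (13.8 and 12.5 CPM to 27.9 and 23.9 CPM) rose 1.93-fold and 1.97-fold. Mael, a piRNA pathway gene, rose 2.42-fold. Of 20 genes of the 2-cell-like state 5 rose (Zfp352, Tdpoz4, Sp110, Gm5662 and Usp17lc) and 0 fell by either tool, with a median of 0.23, and the number called was 2 without replicate 2 of the control and 3 without replicate 1 of the auxin group. Several of them belong to families of near-identical copies whose reads cannot be assigned with certainty.

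Among 22 blood and endothelial genes 8 rose and 0 fell by either tool, with 1 lower at an unadjusted p below 0.05 (median 0.58). Pecam1, an adhesion protein of endothelium and also of ES cells, rose from 44.2 and 45.5 CPM to 95.5 and 98.8 CPM (adjusted p = 6.53e-09). The myeloid factor Spi1 rose from 0.743 and 0.642 CPM to 2.12 and 2.36 CPM (adjusted p = 0.000115). The endothelial markers Cdh5 and Kdr did not pass, at 4.04 to 4.54 CPM and 6.28 to 6.87 CPM in the controls and at 3.28 to 3.54 CPM and 4.86 to 5.66 CPM with auxin.

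Lists of other lineages had calls in both directions. Mesoderm and mesenchyme genes had 8 of 34 lower and 7 higher (median −0.03), and the largest change was a decrease of Osr1, a zinc-finger factor of intermediate mesoderm. Osr1 was at 27 and 23 CPM in the controls and at 1.64 and 1.71 CPM with auxin, 14.9-fold lower (adjusted p = 1.5e-11). Endoderm genes had 7 of 33 each way (median 0.02): Apob, the apolipoprotein of endoderm-derived secretory cells, fell 3.36-fold and the keratin gene Krt8 1.9-fold, whereas Amn, a partner of the Cubn receptor, rose from 102 and 108 CPM to 196 and 180 CPM. In the matrix list 8 of 24 fell and 5 rose (median −0.15), with 7 to 9 calls when a library was left out. Vcan, which encodes the proteoglycan versican, was at 83.2 and 87.3 CPM and then at 11.9 and 11 CPM, 7.47-fold lower (−2.90 ± 0.175, adjusted p = 3.9e-09), whereas the crosslinking enzyme gene Loxl1 and the collagen gene Col6a2 rose 2.4-fold and 2.16-fold. Markers of muscle (3 of 26 higher, 4 lower), glia (2 of 14 higher, 3 lower), neural crest (3 of 18 higher, 6 lower) and trophoblast (2 of 13 higher, 5 lower) showed no common direction. The muscle count moved when single libraries were left out. Muscle genes (11.5% higher, 15.4% lower) and higher glial genes (14.3%) were near the 11.8% of all tested genes called each way. Tnnt2, Sox10, Aqp4 and Elf5, defining markers of heart muscle, crest, astrocytes and trophoblast, were at or below 0.366 CPM in all 4 libraries.

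Adhesion and guidance molecules were more often lower than higher. Of 21 cadherins and unclustered protocadherins 11 fell and 4 rose (Cdh3, Cdh13, Cdh4 and Pcdh19), with a median of −0.76. Without any 1 of the 4 libraries 5 to 7 were lower and 2 higher. N-cadherin, Cdh2, went from 84.2 and 85.3 CPM to 23.4 and 27 CPM (−1.75 ± 0.10, adjusted p = 1.41e-09). Of 33 axon guidance genes 15 fell and 9 rose (median −0.22). Robo2, a receptor for Slit repellents, fell from 29.1 and 30.5 CPM to 4.79 and 4.94 CPM (adjusted p = 8.69e-11), and the ephrin receptor genes Epha3 and Epha7 fell 8.45-fold and 4.23-fold.

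Clustered protocadherins, whose neighbouring promoters are chosen with the help of CTCF binding, were lower in the beta and gamma families. The alpha family had no list and is not described. Of 20 tested beta genes 15 fell and 0 rose by edgeR (12 and 0 by DESeq2), with a median of −2.94, or −2.31 with genes at 0 in a group set at their bound. Of 21 gamma genes 17 fell and 0 rose by either tool, with a median of −2.30. No beta or gamma gene was higher at an unadjusted p below 0.05. Summed over the list, beta genes were at 12.3 CPM in both controls and at 2.17 and 2 CPM with auxin, and gamma genes at 64 and 65.5 CPM and then at 24.1 and 26.8 CPM. Pcdhb6, the beta gene with the largest fitted decrease, was at 0.912 and 1.01 CPM in the controls and had 0 counts with auxin, at least 38.4-fold lower. Pcdhb22, the tested beta gene with the highest mean count, was at 4.41 and 3.55 CPM and then at 0.111 and 0.0915 CPM (adjusted p = 4.94e-09). Gamma genes share their last exons, so reads of those exons cannot be assigned to 1 gene.

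Imprinted genes, expressed from 1 parental copy and in part controlled by CTCF at imprinting control regions, had 10 of 29 lower and 3 higher (Grb10, Cdkn1c and Nap1l5), with a median of −0.26. H19, the long noncoding RNA next to Igf2, fell from 144 and 149 CPM to 21.7 and 21.4 CPM, 6.82-fold (−2.77 ± 0.07, adjusted p = 2.33e-13). Igf2, the growth factor gene at the same locus, also fell, from 369 and 380 CPM to 199 and 206 CPM (−0.89 ± 0.06, adjusted p = 1.58e-08). Plagl1 fell from 352 and 390 CPM to 76.8 and 84.5 CPM and Grb10 rose from 73.4 and 67.9 CPM to 190 and 201 CPM. Counts per gene do not separate the parental copies.

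Housekeeping groups were split. Cholesterol synthesis had the highest share of decreases of all lists, 22 of 25 lower and 1 higher, the lipid transfer gene Stard4, with a median of −0.54. The changes were small: Hmgcs1, which makes the first committed intermediate, fell from 311 and 300 CPM to 161 and 155 CPM, 1.93-fold (adjusted p = 5.67e-09), and Lss fell 1.71-fold. Integrated stress response genes had 12 of 20 lower and 0 higher (14 and 0 by DESeq2 and also at an unadjusted p below 0.05), with Chac1 3.9-fold, Trib3 2.36-fold and Mthfd2 1.97-fold lower. DNA replication genes had 13 of 34 lower and 0 higher by either tool, with small changes (median −0.13, largest Rfc3 at 1.65-fold). The number lower was 7 without replicate 1 of the control, 6 without replicate 1 of the auxin group and 1 with all 24 libraries.

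Mitosis genes did not pass. Of 25 tested, 0 passed by edgeR and 1 by DESeq2, with 3 at an unadjusted p below 0.05 (2 higher, 1 lower). The proliferation marker Mki67 was at 481 and 533 CPM without auxin and at 502 and 480 CPM with it, and the groups overlapped. Ribosomal protein genes had 1 of 34 lower, Rplp0, and 0 higher by either tool, and Rplp0 did not pass in 3 of 4 fits with a library left out. Glycolysis and hypoxia genes had 8 of 28 lower and 5 higher, p53 targets 6 of 25 higher and 4 lower, interferon genes 4 of 20 lower and 3 higher and heat shock genes 2 of 20 higher, or 10%, near the 11.8% of all tested genes. With a library left out, glycolysis and hypoxia genes gave 7 to 9 calls, p53 targets 6 or 7 and heat shock genes 0 or 1. Immediate early genes had 8 of 20 lower and 3 higher (Egr1, Egr2 and Nr4a1). DNA methylation genes had 3 of 13 lower (Uhrf1, Tdg and Mbd1) and 2 higher (Dnmt3l and Dnmt3a). The calls of Egr2, Tdg and Mbd1 were not stable to leaving out a library. Their log2 fold changes then ran from 0.51 to 1.51, from −0.31 to −0.23 and from −0.3 to −0.13. Cell death genes had 6 of 20 lower and 3 higher, among them Bik and Pmaip1, and the decreases were led by Bak1.

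**Figure D3:**
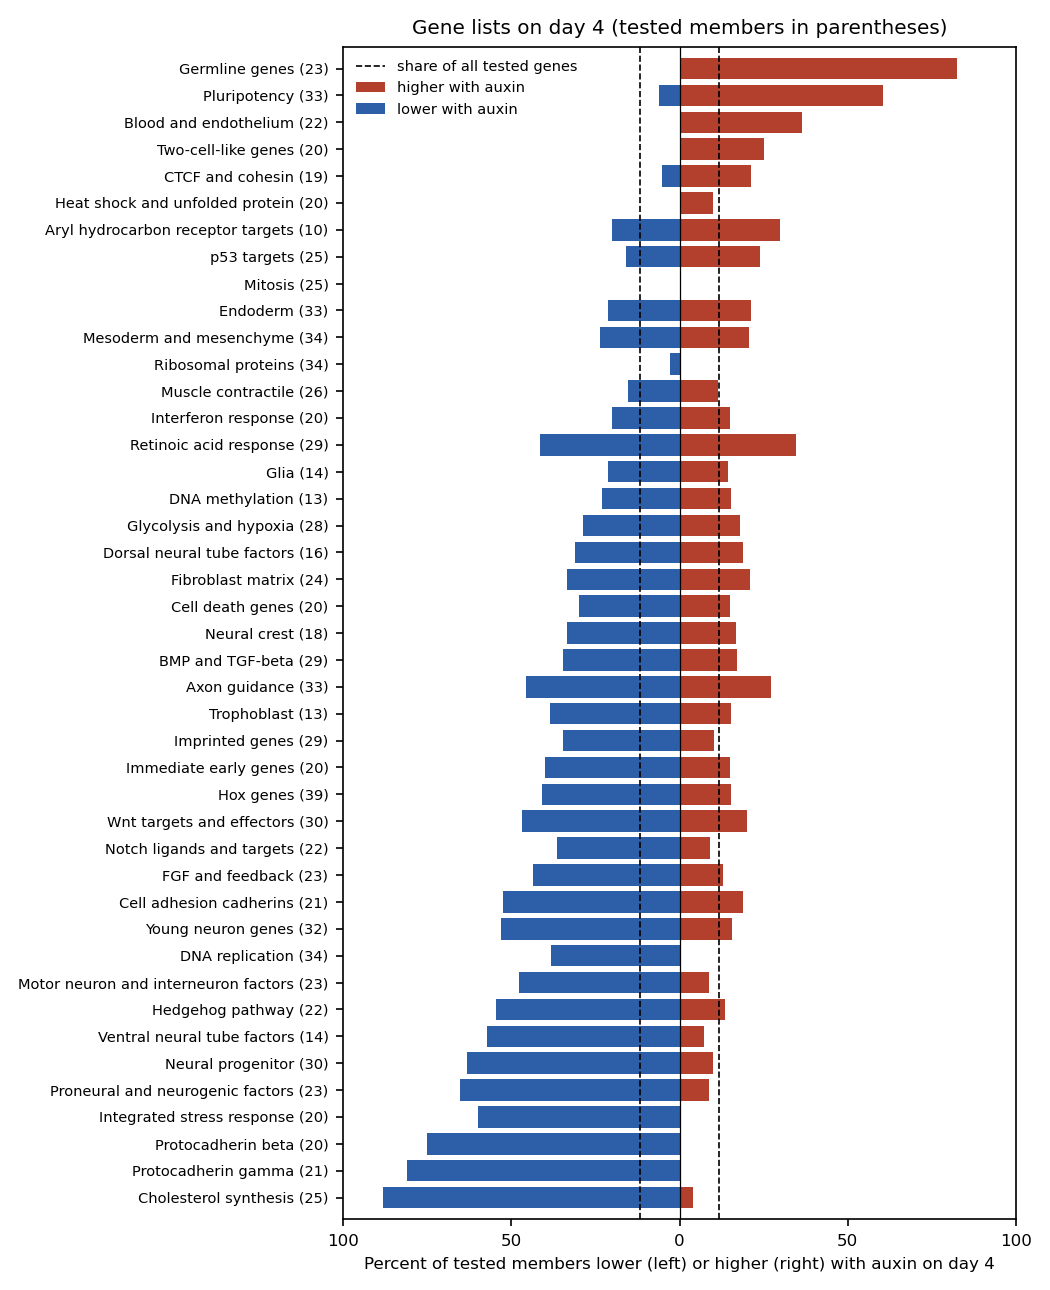
Bars show, for each of 43 lists, the percent of tested members lower (left) and higher (right) with auxin on day 4, and dashed lines mark the 11.8% of all tested genes called each way. Germline and pluripotency genes stand at the top with 82.6% and 60.6% higher. Cholesterol synthesis, gamma protocadherins and beta protocadherins stand at the bottom with 88%, 81% and 75% lower.

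Bak1, a pore-forming protein of mitochondrial cell death, had the smallest p-value of all tested genes. It was at 58.2 and 55.5 CPM in the controls and at 4.46 and 4.53 CPM with auxin, 12.6-fold lower (−3.66 ± 0.08, adjusted p = 4.65e-14). H19 came next. Among genes averaging at least 5 on the log2 CPM scale, the other decreases with the smallest p-values were Cyp1b1, Nr2f1, Cpe and Epha7. Cyp1b1, a cytochrome P450 gene, was at 60.7 and 61.3 CPM and then at 15.3 and 17.1 CPM, and Cpe, which encodes the hormone-processing carboxypeptidase E, at 52.8 and 53.2 CPM and then at 11.8 and 11.9 CPM.

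Among genes averaging at least 1 on the log2 CPM scale, the largest increase was in Emx1, a homeodomain factor of the dorsal forebrain. Emx1 was at 0.101 and 0.122 CPM in the controls and at 9.19 and 8.04 CPM with auxin, 75.2-fold higher (6.23 ± 0.39, adjusted p = 6.56e-09), so it was nearly silent without auxin. Cyp1a1, a detoxifying enzyme gene induced through the aryl hydrocarbon receptor, went from 1.12 and 1.13 CPM to 17.1 and 18.2 CPM (3.97 ± 0.14, adjusted p = 2.85e-11). Other targets of that receptor did not rise together with it: of 10 tested, 3 were higher (Cyp1a1, Aldh3a1 and Nfe2l2) and 2 lower (Cyp1b1 and Tiparp). Aldh3a1, Nfe2l2 and Tiparp each did not pass in 2 of the 4 fits with a library left out, and 0 of the 10 passed with all 24 libraries.

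Several of the most increased genes are known from differentiated tissues outside the neural lineage. Cpa1, a pancreatic digestive enzyme, rose from 0.98 and 1.02 CPM to 10.4 and 9.87 CPM (adjusted p = 1.18e-10). Atp4a, the catalytic subunit of the gastric proton pump, rose from 0.963 and 0.948 CPM to 9.12 and 8.72 CPM (adjusted p = 5.04e-10). Vgll2, a TEAD cofactor known from muscle and pharyngeal arches, rose from 1.22 and 1.38 CPM to 10.3 and 11.8 CPM (adjusted p = 7.25e-10). Fam110c rose 5.44-fold, Slc25a48 6.98-fold and Zcwpw2 6.75-fold. These increases started from about 1 CPM or less, except for Fam110c at 4.9 and 5.71 CPM. At the same level of at least 5, the increases with the smallest p-values after Eomes were in the pantetheinase gene Vnn1 (35.2 and 34 CPM to 86.6 and 85.7 CPM), the glycine decarboxylase gene Gldc (90.4 and 90.7 CPM to 218 and 222 CPM), Grb10, Bmper (2.58-fold) and Ccdc136 (2.29-fold).

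Not all of these calls held when the ES libraries entered the fit. Of 223 named genes that passed, 97 did not pass with all 24 libraries, among them Cyp1a1 (adjusted p = 0.122), Eomes (0.0698), Vnn1 (0.129), Cyp1b1 (0.169), Igf2 (0.132), Hmgcs1 (0.179), Nr0b1 (0.187), Id3 (0.505) and Hhip (0.36). The number called moved by over 1.5 times in 41 of 43 lists. It fell to 13 lower for neural progenitors, 8 lower for proneural factors, 7 higher for pluripotency, 6 higher for germline, 6 lower for cholesterol synthesis, 6 lower for beta protocadherins, and was 13 lower for gamma protocadherins. It was 3 for imprinted genes, 2 for endoderm genes and 1 for DNA replication genes. It was 0 for 2-cell-like, glycolysis and hypoxia, aryl hydrocarbon receptor, ribosomal, heat shock and DNA methylation genes. Some calls also rested on single day 4 libraries, among them those of Dll4, Wnt3a, Atoh1, Bik and Usp17lc, beside the genes marked above. Without any 1 of the 4 day 4 libraries, 180 of the 223 genes passed in each of the 4 fits.

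The same contrast on days 2 and 6 takes its fold changes from other libraries, within the same fit and spread, and shows which day 4 changes came up again. On day 2, 4126 of 22587 tested genes passed (18.3%), 9.84% higher and 8.43% lower, and on day 6 6588 (29.2%), 14% higher and 15.2% lower. Of the 2659 genes lower on day 4, 1860 (70%) were lower and 36 higher on day 6, and 884 (33.2%) were lower and 140 higher on day 2. Of the 2659 genes higher on day 4, 1798 (67.6%) were higher and 60 lower on day 6, and 1064 (40%) were higher and 84 lower on day 2. On all 3 days 698 genes were lower and 815 higher. The effect itself differed between day 4 and day 2 in 2237 genes (9.9%, 4.56% with a higher and 5.34% with a lower effect on day 4). Between day 4 and day 6 it differed in 958 genes (4.24%, 2.19% higher and 2.05% lower), by the same test of the difference. These counts moved to 1251 to 6361 and to 514 to 567 with 1 library left out, and the second to 2491 without the day 2 auxin group.

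Bak1 was lower on each day, with log2 fold changes of −2.36 on day 2, −3.66 on day 4 and −3.62 on day 6, and the day 4 effect minus that of day 2 was −1.30 (adjusted p = 7.36e-07). Prss41, a serine protease gene, was at 6.54 and 7.29 CPM on day 2 without auxin and at 0.265 and 0.159 CPM with it, and its changes were −5.04, −4.14 and −3.60 on days 2, 4 and 6. The effect on Prss41 on day 4 did not differ from that on day 2 (adjusted p = 0.203) or day 6 (adjusted p = 0.564) at this spread. Like Bak1, the neural factor Sox1 was lower on each day. Sox1 was −0.99 on day 2 and −2.61 on day 6, and the day 4 effect was larger than that of day 2 by 1.53 on the log2 scale (adjusted p = 6.78e-05). Olig2, Rfx4, Pou3f2, Nr2f1 and Vcan did not pass on day 2 and were lower on days 4 and 6, with a test of the difference from day 2 that passed for each. Vcan was at 13 CPM in both day 2 controls and at 7.35 and 13.8 CPM with auxin, and at 228 and 222 CPM and then at 51.5 and 56.5 CPM on day 6.

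In some genes the sign changed between days. Nkx6-1 was higher with auxin on day 2, at 1.54 and 1.52 CPM against 0.306 and 0.299 CPM (2.33, adjusted p = 2.46e-06), and lower on days 4 and 6. Osr1 was higher on day 2 from a very low level (0.102 and 0.15 CPM to 0.341 and 0.572 CPM, adjusted p = 0.00173) and lower thereafter. Nanog was lower on day 2 (−0.67, adjusted p = 6e-07) and higher on days 4 (0.69) and 6 (0.90). Aldh1a2 was higher on days 2 (2.69) and 4 (1.80) and lower on day 6 (−1.39). The tests of the difference between day 4 and day 2 passed for Nkx6-1, Osr1 and Nanog.

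Cells harvested 2 days after auxin was removed on day 4 were compared with day 6 control cells. Those controls also enter the day 6 fold changes but not those of day 4. In this comparison 7658 genes passed (33.9%), 16.8% higher and 17.1% lower. Of the genes lower on day 4, 1233 (46.4%) were lower and 265 higher after washout, and of those higher on day 4, 1055 (39.7%) were higher and 247 lower. Emx1 was back at 0.0779 and 0.105 CPM beside 0.132 and 0 CPM in day 6 controls. Gli1 was at 31.6 and 33.3 CPM beside 36.6 and 36.5 CPM (−0.17, adjusted p = 0.154), and H19 at 379 and 377 CPM beside 427 and 424 CPM (−0.17, adjusted p = 0.0462). Bak1 stood between, at 25.4 and 26.3 CPM beside 58 and 61.4 CPM. Neural factors remained low: Sox1 was at 1.79 and 1.4 CPM beside 14.7 and 16.7 CPM and Olig2 at 0.156 and 0.105 CPM beside 6.38 and 6.24 CPM. Pou5f1 was at 158 and 155 CPM beside 85.8 and 80.1 CPM. Washout libraries also differ in how often low counts are even, at 59.6% to 60.5% of counts from 1 to 20 against 66.3% and 67.1% in the day 6 controls and 69.8% to 72.2% in the day 4 libraries. The part of this in the result, and whether both mates of a read pair were counted, was not tested.

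**Figure D4:**
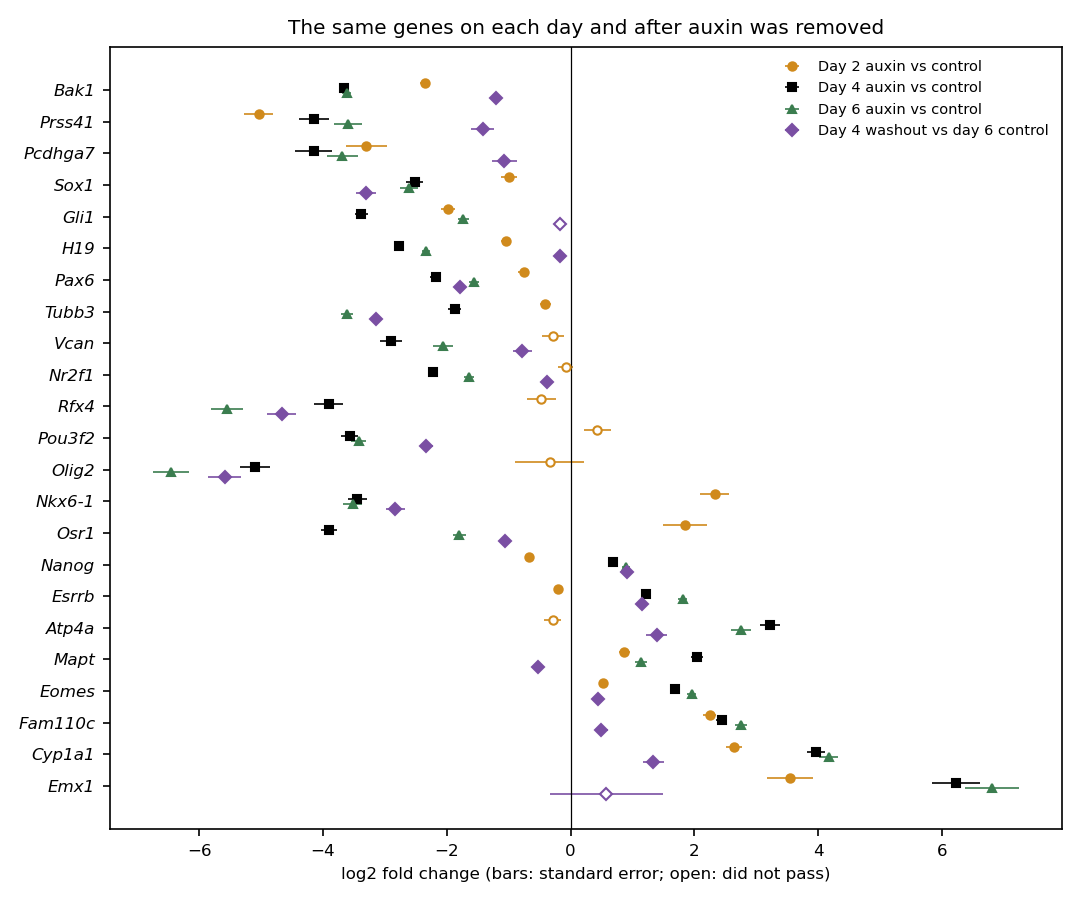
Log2 fold changes with standard errors of 23 genes for auxin against control on days 2, 4 and 6 and for day 4 washout against day 6 control, with open symbols where a gene did not pass. Bak1 and Prss41 are lower on all 3 days, Olig2 and Rfx4 pass on days 4 and 6 but not on day 2, Nkx6-1 and Osr1 change sign after day 2, and Emx1 and Gli1 return to about 0 after washout.

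Genes were also grouped by their course in control cells between day 2 and day 6. These libraries do not enter the day 4 fold change, but they share its filter and the spread estimated for each gene. Between these days 13582 genes passed (60.1%), 30.7% higher and 29.5% lower on day 6. Of 1815 genes that rose at least 4-fold in control cells, 531 (29.3%) were lower and 156 (8.6%) higher with auxin on day 4. Of 619 that rose at least 16-fold, 203 (32.8%) were lower and 45 higher. Of the genes that fell at least 4-fold in control cells, more were higher than lower, with 311 of 1572 (19.8%) higher and 41 (2.61%) lower. Of 245 that fell at least 16-fold, 28 were higher (11.4%), close to the 11.8% of all tested genes, and 6 lower (2.45%). Only the share called dropped in this class. The median day 4 log2 fold change was 0.39 for genes that fell at least 4-fold and 0.5 for those that fell at least 16-fold. For genes that rose at least 4-fold and 16-fold it was −0.35 and −0.64. Among 9005 genes that did not pass between these days, 6.36% were higher and 6.46% lower with auxin. Both tests use the same spread of each gene, so a gene with a wide spread is less likely to pass either. The low shares in this class are therefore no independent result. Nr2f1 and Vcan rise in control cells by 5.47 and 4.12 on the log2 scale, and Esrrb and Nanog change by −3.37 and −3.62. They are examples of genes that auxin moved against their control course. The pattern is not without exceptions, since Vgll2 rises in control cells (4.06) and was higher with auxin, and Sox1 falls only a little (−0.25) and was lower.

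CTCF recognises a motif whose core was searched as 12 letters: CC, any 3 bases, AG, any 2 bases, GGC. These letters were looked for on both strands in RefSeq promoter windows of GRCm38.p6, which hold 250 bases before and 50 bases after each start, for the 16129 tested protein-coding genes on chromosomes of the table, of which 80.9% had a window. They occurred in 14% of all tested genes with a window, in 12.9% of those that did not pass on day 4 and in 17.9% of those lower on day 4. Among 519 genes lower on days 2, 4 and 6, 143 (27.6%) held them, and among 67 lower by at least 2-fold on each of those days 20 (29.9%) did. A gene was counted if any of its windows held the letters. Genes lower on all 3 days had 1.34 windows on average, against 1.26 over all tested genes and 1.32 in genes higher on all 3 days. The same 12 letters in reverse order occurred in 5.03%, 4.75%, 5.66%, 5.97% and 4.48% of these classes. Reversal keeps the base composition but fixes a CG pair that the motif letters lack. Over all windows the reversed letters were rarer (2.77% against 8.61%), so the levels of both patterns are not comparable. Split into 3 classes of rising GC content, the share with the motif letters in genes lower on all 3 days was 19.5%, 28.8% and 31.7%. Over all tested genes it was 8.62%, 14.8% and 18.7%. The letters occurred in 15.6% of genes higher on day 4, in 15.9% of those higher on all 3 days and in 13.1% of those lower on day 4 that did not pass on day 2. Fewer than 80% of the genes in these classes had a window (79.8%, 79.4% and 79.4%). Coverage was little higher in genes lower on day 4 (80.2%) and in those lower on all 3 days (82.1%). In every class the share says nothing of genes without a window. The set of windows also lacks the whole chromosome that carries the beta and gamma protocadherins. Genes of that chromosome enter neither the shares nor the coverage, so both say nothing of these protocadherins. These shares are a description, and a match is not a binding site.

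Of the 20 genes lower by at least 2-fold on 3 days with the letters, 19 had them wholly before the start. Shown here are 6 windows from these 19 genes, chosen after their values were seen because the genes have known products or appear elsewhere in the text. Each is the stretch around the letters, up to 60 bases on either side, 5′ to 3′ on the gene's strand, with the letters of the motif (or its reverse complement) in capitals. In Elavl4 another match, on the other strand, overlaps the one marked. It ends 33 bases before the start and runs on into the lower-case letters.
Prss41 (chr17:23844157-23844269, minus): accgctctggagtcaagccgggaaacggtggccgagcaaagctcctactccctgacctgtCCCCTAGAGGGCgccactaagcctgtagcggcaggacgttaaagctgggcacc
Elavl4 (chr4:110351912-110352020, minus): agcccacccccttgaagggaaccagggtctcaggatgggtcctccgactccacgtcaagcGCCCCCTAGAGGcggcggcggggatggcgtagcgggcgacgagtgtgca
Ror2 (chr13:53286134-53286265, minus): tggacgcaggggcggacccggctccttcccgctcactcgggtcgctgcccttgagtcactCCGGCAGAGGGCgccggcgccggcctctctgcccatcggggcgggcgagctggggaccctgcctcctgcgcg
Scn2a (chr2:65668526-65668657, plus): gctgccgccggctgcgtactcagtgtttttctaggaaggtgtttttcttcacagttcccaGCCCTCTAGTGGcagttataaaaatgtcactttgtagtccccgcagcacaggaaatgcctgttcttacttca
Dennd6b (chr15:89196583-89196714, minus): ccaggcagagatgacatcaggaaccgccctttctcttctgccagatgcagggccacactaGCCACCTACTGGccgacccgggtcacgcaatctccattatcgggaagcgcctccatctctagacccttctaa
Apba2 (chr7:64501555-64501686, plus): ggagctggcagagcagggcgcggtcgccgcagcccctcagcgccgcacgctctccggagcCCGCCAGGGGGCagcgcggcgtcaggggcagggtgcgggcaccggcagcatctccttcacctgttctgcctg

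On day 4, Prss41 was at 4.07 and 3.61 CPM in the controls and at 0.147 and 0.275 CPM with auxin. Elavl4, a neuronal RNA-binding protein, was at 2.91 and 2.77 CPM and then at 0.626 and 0.397 CPM. Ror2, a receptor for Wnt5a, was at 17.6 and 18.4 CPM and then at 4.72 and 5.32 CPM. These 6 genes were chosen among genes lower on day 4, so a lower auxin group in each is no further result. The groups did not overlap in any of them, as in 2658 of the 2659 genes lower on day 4 and 63.7% of all tested genes. Scn2a, a neuronal sodium channel gene, was at 1.82 and 1.41 CPM and then at 0.405 and 0.0915 CPM, Dennd6b at 15.4 and 16.9 CPM and then at 2.91 and 2.64 CPM, and Apba2, an adaptor protein of neurons, at 30.7 and 29 CPM and then at 7.75 and 8.04 CPM. The windows of Bak1 and Vcan do not hold these letters.

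**Figure D5:**
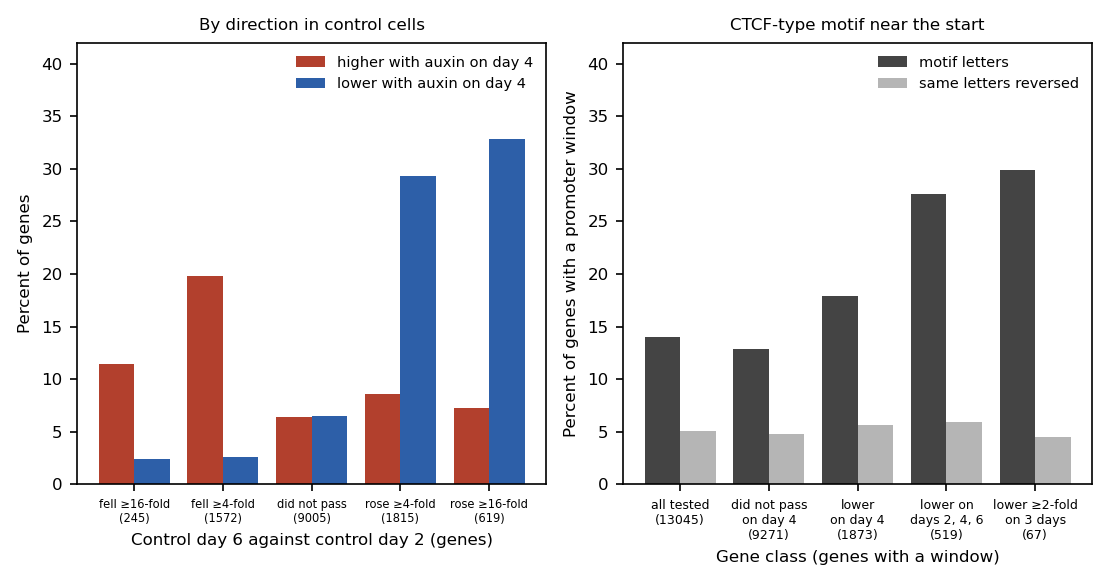
Left, the percent of genes higher (red) or lower (blue) with auxin on day 4, by their course from day 2 to day 6 in control cells. Right, among genes with a promoter window, the percent in which it holds the motif letters or the same letters reversed. The motif letters reach 27.6% for genes lower on days 2, 4 and 6, against 14% of all tested genes with a window.

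Changed genes lay next to each other more often in the same than in the opposite direction. Among protein-coding genes 14.6% were lower, and the next tested protein-coding gene along the chromosome was also lower for 18.5% of them and higher for 12.5%. Of the tested protein-coding genes 14.8% were higher, with a next gene that was higher in 20.3% and lower in 10.9% of cases. There were 36 runs of at least 4 neighbours called in 1 direction, 14 lower and 22 higher. The longest 3, of 14, 7 and 7 genes, were in the gamma and beta protocadherins, whose members overlap or share sequence. A run of 6 higher genes on chr6:5220852-6217173 held Pon3, Pon2, Asb4, Pdk4, Dync1i1 and Slc25a13 (median log2 fold change 0.88), and a run of 5 lower genes on chr15:89123307-89196496 held Hdac10, Mapk12, Mapk11, Plxnb2 and Dennd6b (median −0.90). Higher runs also held Nanog and Dppa3 with Gdf3 and Apobec1, and Pou5f1 with 3 H2-Q genes. Emx1 ended a run of 5 higher genes with a median of 0.43. Coordinates are those of GENCODE vM21 on mm10.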

How the data were processed

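The series holds 24 RNA-seq libraries (HiSeq4000, per the labels). The authors deposited whole-number read counts per gene without normalization. STAR, HTSeq, edgeR and mm10 are named in the submitters' processing notes, and for their versions, the annotation and the strand setting the record is: not given in the sources used here. All 24 columns matched 1 sample each by title, and 1 line with neither gene name nor values was left out.

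Counts of the 16 differentiation libraries, 51053184 to 72048935 each, were fitted with edgeR 4.0.16 in R 4.3.3: filterByExpr (minimum count 10, minimum total 15), trimmed mean of M-values scaling, 1 mean per group and the quasi-likelihood F test. Adjusted p means Benjamini-Hochberg across the tested genes of 1 comparison. The common dispersion was 0.0051. Standard errors were derived from each effect and its F value. The 7 comparisons were auxin against control on days 2, 4 and 6, the differences of the day 4 effect from the others, day 4 washout against day 6 control, and day 6 against day 2 control. Where a group had 0 counts, the fold is a bound against 3 counts over the group.

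Gene lists, 43 in all, and the comparison itself were chosen with earlier results of these data known, so no list is independent evidence. Named genes are Ctcf, Vcan and 8 stage markers, the 15 largest changes each way averaging 1 or more log2 CPM, the 6 smallest p-values each way with at least 5, and up to 5 members per list. Some members are not reported here. Members of lists named because a count was small were chosen after their values were seen. Positions and exon lengths come from GENCODE vM21 by symbol, for 95.3% of tested genes. The CTCF core letters were written from general knowledge of the motif. Simulated data with 100 genes changed 2-fold and 100 changed 4-fold among 22238 were analysed the same way for day 4, which recovered 96% and 100% with 15 of 22038 unchanged genes called. The counts were drawn with the spread fitted to these data, and changes were planted only in genes at 1 CPM or more in the day 4 controls. The simulation therefore checks the steps of the fit. It cannot show whether the fitted spread is right, and it holds no changes below 2-fold. Alternatives were DESeq2 1.42.0 and its size factors, no filter, a replicate block, other sets of libraries, halved counts and each replicate left out.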

Additional observations from a re-analysis of the deposited data

Results flagged for a closer look

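The effect of auxin on day 4 differed from that on day 2 in 2237 genes and from that on day 6 in 958 genes, by edgeR's test of the difference between effects, and the values below are such differences on the log2 scale for named genes that passed. Both comparisons use the day 4 libraries, and the first also uses the day 2 auxin group, whose replicates stood furthest apart.

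In some named genes the effect was lower on day 4 than on day 2. The difference was −1.53 for Sox1, −1.42 for Pax6, −4.76 for Olig2, −5.78 for Nkx6-1, −3.44 for Rfx4 and −4 for Pou3f2. It was −1.46 for Tubb3, −5.19 for Mir124-2hg, −4.03 for Nhlh2, −2.65 for Nsg2, −2.14 for Nr2f1, −1.27 for Epha7 and −0.5 for Nes, which was higher on both days. Other genes with a lower effect on day 4 were Vcan (−2.62), Osr1 (−5.75), Vtn (−4.6), Bak1 (−1.3), H19 (−1.72), Cyp1b1 (−2.12), Cpe (−1.21) and Vnn1 (−0.37). The effect was higher on day 4 than on day 2 by 0.73 for Pou5f1, 1.36 for Nanog, 2.68 for Emx1, 1.33 for Cyp1a1, 0.74 for Cpa1, 3.51 for Atp4a and 1.45 for Vgll2. It was higher by 1.84 for Aldh1a3, 1.69 for Klk13, 1.52 for Gm17322, 0.84 for Atp8b5, 1.17 for Eomes and 0.84 for Gldc.

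Against day 6, the day 4 effect was lower by the following log2 differences: Pou5f1 −0.43, Pax6 −0.62, Osr1 −2.1, Bmp5 −2.31, Vnn1 −0.36, Grb10 −0.74, H19 −0.44, Cyp1b1 −1.34, Nr2f1 −0.59, Cpe −1.25 and Epha7 −0.88. It was higher for Nes (0.54), Tubb3 (1.74), Vgll2 (1.13), Nhlh2 (2.77), Rfx4 (1.65) and Gldc (0.74). Tubb3, Nhlh2 and Rfx4 were lower with auxin on both days and fell further on day 6. What these differences come from was not tested.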

How the results depend on the processing

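With all 24 libraries, ES cells included, 803 genes passed on day 4 (39.7% of them higher, against 50%), 313 on day 2 and 1564 on day 6. In that fit 73 differed between days 4 and 2 (17.8% higher), 30 between days 4 and 6 (80% higher), 1635 after washout and 8121 between control days. Without the day 2 auxin group, 2491 differed between days 4 and 6, and day 4 gave 7716 genes; the 4 day 4 libraries alone gave 7864. With 1 replicate left out in turn, day 4 gave 3354 to 3782 genes, day 2 gave 2266 to 7767, the difference from day 2 1251 to 6361 and that from day 6 514 to 567. Scaling by DESeq2's size factors (5276), DESeq2 itself (5505), no filter (5363) and halved counts (5455) gave similar day 4 counts. No pairing by replicate number was visible on day 4: the correlation of replicate deviations was −0.018, and a replicate block gave 5164 genes, 5097 shared. Over pairs of groups it ran from −0.202 (day 2 auxin, day 6 control) to 0.162 (day 2 auxin, day 6 auxin). Such a correlation cannot show that the samples are unpaired. Of 2694 alternative values of single genes, 228 no longer passed and 3 changed sign, none of them called: Top2a was at 0.01 without replicate 1 of the control and 0.03 without replicate 2 of the auxin group (range −0.06 to 0.03), and Mki67 at 0.03 without replicate 2 of the control (range −0.12 to 0.03). With 1 library left in a group, that library is assumed to vary like the others. Causes were not tested. Genes below about 1 CPM rest on few reads.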
